A study of Mus musculus with 6 samples.

Results

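The nuclei described here were 986 glutamatergic neurons from mouse brain that carried a Foxr2-driven tumour with loss of p53 function. They were chosen by their RNA, as nuclei with UMIs (unique molecular identifiers, 1 per captured RNA molecule) of Slc17a6, the vesicular glutamate transporter VGLUT2. The rule asked for at least 1000 UMIs, a mitochondrial share of at most 5%, and at least 0.2% of UMIs from the neuronal genes Snap25, Syt1, Rbfox3, Celf4 and Grin2b together. It then asked for at least 2 UMIs of Slc17a6, at most 1 UMI of the GABA synthesis genes Gad1 and Gad2 together, fewer than 3 of the dopamine transporter gene Slc6a3, and fewer than 2 of Sim1, Nkx2-1 and Sfta3-ps together. Sim1 and Nkx2-1 mark hypothalamic neurons, so part of the hypothalamus was left out by construction. The 986 nuclei were 9.5% of the 10379 barcodes of their library and 35.65% (95% interval 33.86 to 37.46) of its 2766 nuclei that passed the quality and neuron limits. The whole series held 22125 barcodes.

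Each nucleus of the series gave both RNA and open chromatin (ATAC-seq, counts of transposase cuts in called peaks), by the 10x Multiome assay. Plasmids were delivered into C57BL/6J embryos by in utero electroporation aimed at progenitors of the ganglionic eminence, and integrating vectors drove Foxr2 with a green fluorescent protein and the luciferase Akaluc from the ubiquitous CAG promoter. The Foxr2 p53LOF library also received Cas9 with a guide against Trp53, while the Foxr2 alone library did not, and no library lacked Foxr2. Each genotype entered with 1 library of brain tissue. Electroporation took place in mid-gestation, and the brains were taken after birth, when neurologic symptoms appeared. The animals' ages at that time, and whether a library held tissue of 1 animal, were not given in the sources used here. The p53LOF tissue held tumour and surrounding brain together, and electroporation reaches only part of the cells, so a nucleus of either library need not carry the vectors.

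Neurons release glutamate through vesicles filled by VGLUT1 (Slc17a7), which dominates in cortex and hippocampus, or by VGLUT2 (Slc17a6), which dominates in thalamus, hypothalamus, midbrain and hindbrain. Position along the brain axis is written in transcription factors. Tcf7l2, a TCF/LEF factor that binds DNA in the Wnt pathway with its relative Lef1, is a selector of thalamic and habenular neurons and is also used in midbrain and in maturing oligodendrocytes. Ebf3 belongs to the early B-cell factor family with Ebf1, Ebf2 and Ebf4, which act in the differentiation of many subcortical neurons. The telencephalon is the part that includes cortex and the ganglionic eminence.

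The sequences below are shown because chromatin at them separated these neurons from other neurons, or Tcf7l2-rich from Ebf3-rich nuclei. Coordinates are on GRCm38.p6 (mm10). The promoters come from RefSeq and run from 250 bases before to 50 bases after the gene start, each on the strand of its gene. Slc17a6 and Tcf7l2 each have 2 promoter entries, of which the first is shown, and Ebf3 has 1. The other windows are the central 300 bases of a called peak, on the plus strand. Capitals mark matches, on either strand, to ATCAAAG (a TCF/LEF motif, read CTTTGAT on the other strand) and CAGATG (an E-box, read CATCTG on the other strand). The palindrome bound by EBF factors was searched as well, with any bases at its spacer. In the printed windows no match overlaps another. A match is a stretch of letters and not a shown binding site.
Slc17a6 promoter, chr7:51621580-51621879, plus strand: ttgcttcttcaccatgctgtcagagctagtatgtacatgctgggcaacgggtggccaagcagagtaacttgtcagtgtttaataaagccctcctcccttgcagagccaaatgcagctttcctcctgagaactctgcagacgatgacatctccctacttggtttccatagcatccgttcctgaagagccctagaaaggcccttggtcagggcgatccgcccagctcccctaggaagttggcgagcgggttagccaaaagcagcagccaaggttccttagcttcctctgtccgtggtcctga
Slc17a6 intron, chr7:51662499-51662798: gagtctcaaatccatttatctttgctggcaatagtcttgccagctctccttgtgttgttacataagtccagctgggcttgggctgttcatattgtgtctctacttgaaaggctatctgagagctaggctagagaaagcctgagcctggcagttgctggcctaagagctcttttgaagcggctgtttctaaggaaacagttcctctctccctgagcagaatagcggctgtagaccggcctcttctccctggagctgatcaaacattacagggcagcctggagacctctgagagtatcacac
Tcf7l2 promoter, chr19:55741560-55741859, plus strand: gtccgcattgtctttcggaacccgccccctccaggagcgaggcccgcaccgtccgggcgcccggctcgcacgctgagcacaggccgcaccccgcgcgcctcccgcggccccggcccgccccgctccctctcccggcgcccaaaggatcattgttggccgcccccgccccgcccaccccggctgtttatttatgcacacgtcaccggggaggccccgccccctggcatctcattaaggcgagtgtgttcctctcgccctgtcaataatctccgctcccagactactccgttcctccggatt
Tcf7l2 intron, chr19:55825650-55825949: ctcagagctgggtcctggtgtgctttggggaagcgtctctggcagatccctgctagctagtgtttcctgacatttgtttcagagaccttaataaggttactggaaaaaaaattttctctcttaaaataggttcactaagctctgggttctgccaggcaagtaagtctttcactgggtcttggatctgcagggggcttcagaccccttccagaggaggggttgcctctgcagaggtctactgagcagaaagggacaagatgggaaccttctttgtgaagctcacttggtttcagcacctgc
Ebf3 promoter, chr7:137314396-137314695, minus strand: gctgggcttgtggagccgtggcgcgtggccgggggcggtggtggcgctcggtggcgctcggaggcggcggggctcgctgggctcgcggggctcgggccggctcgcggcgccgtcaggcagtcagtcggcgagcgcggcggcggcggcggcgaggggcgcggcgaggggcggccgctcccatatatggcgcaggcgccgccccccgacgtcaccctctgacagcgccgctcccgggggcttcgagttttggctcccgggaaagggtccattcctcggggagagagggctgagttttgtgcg
Wdr25 intron, chr12:109010333-109010632: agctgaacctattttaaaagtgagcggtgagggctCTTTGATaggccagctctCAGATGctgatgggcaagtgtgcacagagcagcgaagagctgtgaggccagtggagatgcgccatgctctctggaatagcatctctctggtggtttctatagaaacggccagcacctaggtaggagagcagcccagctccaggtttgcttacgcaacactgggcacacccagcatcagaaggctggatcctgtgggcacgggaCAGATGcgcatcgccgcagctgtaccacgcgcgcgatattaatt
The Wdr25 window holds ATCAAAG on the minus strand from position 36 and E-boxes from positions 54 and 257, counted from its left end. The other 5 windows hold no match to the 3 motifs. Among 32851 RefSeq promoters of the same length, 3.729% hold ATCAAAG, 17.15% hold the E-box and 0.9041% hold the EBF motif.

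The Slc17a6 neurons held 11955095 UMIs and 8261220 ATAC counts in all. The median nucleus had 10818 UMIs (range 3509 to 83284), 3986 genes and 8681 ATAC counts (range 52 to 54899). Against them stood 751 GABAergic neurons of the same library, which passed the same limits with at least 2 UMIs of Gad1 and Gad2 and at most 1 of Slc17a6, at medians of 10448 UMIs and 8473 ATAC counts. A set of 2477 immune nuclei of the same library, at a median of 3523 UMIs (range 1009 to 559527), is given for scale. It held RNA of oligodendrocytes, astrocytes and dividing cells as well and is no measure of free RNA. From Foxr2 alone came 1514 cortical-type neurons with at least 2 UMIs of Slc17a7, at a median of 10485 UMIs. Of the barcodes of the p53LOF library, 140 had the same name as a barcode of Foxr2 alone replicate 1 and 34 the same as one of replicate 2. Scrublet, a caller of doublets, marked 75 of the 986 Slc17a6 neurons (7.606%), and these were kept.

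Levels are given as CPM: the UMIs or ATAC counts of a feature, summed over all nuclei of a group per 1000000 UMIs or ATAC counts of that group. With 1 library per genotype there were no replicates, so no test was made, and the 95% intervals cover counting error only. They are exact Poisson intervals for levels, Clopper-Pearson intervals for shares, and exact conditional intervals for ratios. Ratios of RNA are log2 ratios of CPM plus 1, which understates low genes. Their intervals, where given, are those of the ratio of counts, and ATAC counts were halved for intervals because a fragment has a cut at each end. Where either group had 0 counts, the limit of the interval nearest to no difference is given in place of a ratio. A gene was called higher or lower at a 2-fold difference when it reached 10 CPM in either group. A low gene could thus enter through 1 group alone, which favours called genes in lists of low genes.

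The limit of 2 Slc17a6 UMIs did not fall in a gap. At the limit stood 167 nuclei with exactly 2 UMIs, and 139 nuclei met every other condition with 1. Tcf7l2 was at 227.5 CPM just inside and 214.5 CPM just outside, and Ebf3 at 97.05 and 70.23 CPM. Slc17a7 was at 1.854 CPM inside and 8.307 CPM outside. So the excluded nuclei next to the limit held the same 2 regional genes and a little more Slc17a7 RNA.

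Slc17a6 (ENSMUSG00000030500, chr7:51622006-51671119) was at 431.5 CPM (419.8 to 443.5), with a median of 4 UMIs per nucleus and a maximum of 49. It was chosen by the rule, and its 4.777 CPM in GABAergic neurons, 11.89 CPM in immune nuclei and 5.03 CPM in cortical neurons of Foxr2 alone are given for scale. Tcf7l2 (ENSMUSG00000024985, chr19:55741820-55933654) was at 215.5 CPM (207.2 to 224.0) in Slc17a6 neurons and 170.5 CPM in GABAergic neurons. In the cortical neurons it was at 4.687 CPM. Tcf7l2 was thus shared by the subcortical neurons of both transmitters and almost missing from cortical ones. Immune nuclei gave it at 219.3 CPM, and their Tcf7l2 locus held 140.7 ATAC CPM beside 126.3 in the Slc17a6 neurons, so they could not serve as a group that lacks this gene. The gene overlaps Ppnr on the same strand.

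Ebf3 (ENSMUSG00000010476, chr7:137193673-137314445, minus strand) was at 112.4 CPM (106.5 to 118.6) in Slc17a6 neurons. It was at 22.33 CPM in GABAergic neurons, 16.36 CPM in immune nuclei and 0.2286 CPM in cortical neurons. Htr2c (ENSMUSG00000041380, chrX:146962513-147197277), a serotonin receptor, stood at 634.2 CPM, below its 908.9 CPM in GABAergic neurons. Hs3st4 (ENSMUSG00000078591, chr7:123982869-124398989), which adds 3-O-sulfate to heparan sulfate, stood at 322.5 CPM beside 254.1 CPM in GABAergic neurons and 783.8 CPM in cortical neurons. Hs3st4 overlaps Gm15338 on the same strand. Of the 5 genes that mark these cells, Slc17a6 and Ebf3 alone were 2-fold above the GABAergic neurons. Slc32a1, the vesicular GABA transporter that defines inhibitory neurons and that the rule did not use, was at 2.175 CPM. Htr2c and Hs3st4 were not called against the GABAergic neurons, while against the cortical neurons Htr2c was higher (106.4 CPM there, log2 ratio 2.56) and Hs3st4 lower (-1.28).

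**Figure D1:**
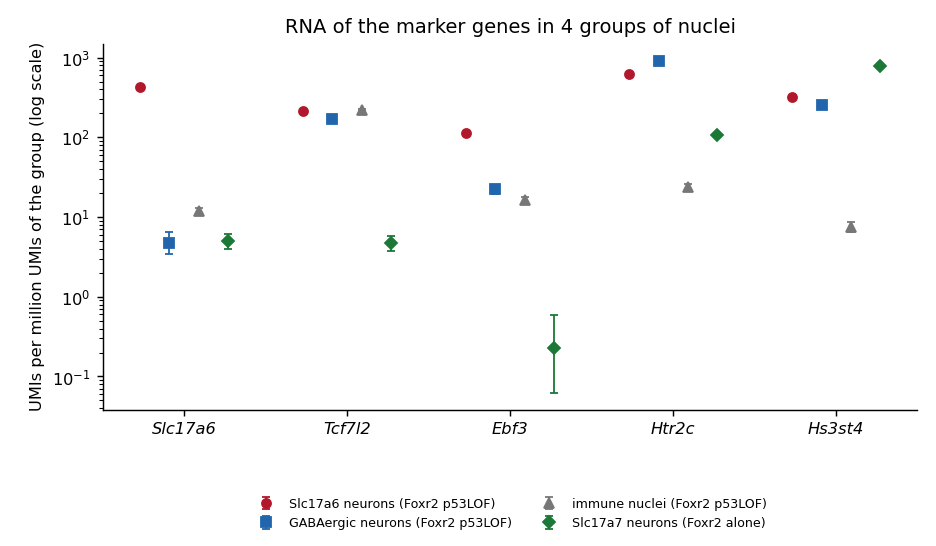
RNA level in CPM (log axis) of Slc17a6, Tcf7l2, Ebf3, Htr2c and Hs3st4 in 4 groups of nuclei, with exact Poisson 95% intervals. Slc17a6 and Ebf3 stand highest in the Slc17a6 neurons, Htr2c in the GABAergic neurons and Hs3st4 in the Slc17a7 neurons.

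A UMI of Tcf7l2 was found in 57.0% of the Slc17a6 neurons, and in 39.05% once each nucleus was thinned to 3000 UMIs. Ebf3 was found in 40.47%, or 22.01% after thinning, beside 10.7% and 4.653% in immune nuclei. Thinning kept all 986 Slc17a6 neurons but left out the 1037 immune nuclei below 3000 UMIs. The thinned share of immune nuclei is thus of 1440 nuclei. Shares with Htr2c were 77.08% and 61.26%, and those with Hs3st4 were 55.68% and 38.74%. Counts per nucleus were uneven: Tcf7l2 had a median of 1 and a maximum of 17, Ebf3 a median of 0 and a maximum of 26, and Htr2c a median of 5 and a maximum of 84. No one of the regional genes was thus detected throughout, and a count of 0 does not show that a nucleus lacks the gene.

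Markers of cortical excitatory neurons were near 0. Slc17a7, the cortical glutamate transporter, was at 2.008 CPM. Tbr1, a factor of deep cortical layers, was at 0.9201 CPM and Neurod6, a factor of cortical excitatory neurons, at 1.673 CPM. The neurons thus held little RNA of these cortical genes.

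Genes of other cells were present at low levels. The oligodendrocyte list of 6 genes summed to 395.6 CPM in Slc17a6 neurons, 494.6 CPM in GABAergic neurons and 2440 CPM in immune nuclei. The astrocyte list of 6 genes summed to 196.0, 193.6 and 1455 CPM in the same groups, and the immune list of 5 genes to 72.77, 83.54 and 1282 CPM. None of these markers was at 0. The sums were close between the neuron groups. Of the Slc17a6 neurons, 0 had over 1% of their UMIs from oligodendrocyte, astrocyte and immune markers. This limit could hardly be reached and cannot show that mixed nuclei were missing. The median immune nucleus itself had 0.2826% of its UMIs from the immune list and 0.05682% from the oligodendrocyte list. Nuclei marked as doublets passed the limit as well.

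The GABAergic neurons of the same library share its tissue. The 2 groups differ in regional genes as well as in transmitter, and these cannot be told apart here. Of 9700 genes tested, 119 (1.23%) were 2-fold higher in the Slc17a6 neurons and 106 (1.09%) 2-fold lower. The higher genes included regional factors of the diencephalon and midbrain. Of the thalamus list, 6 of 11 genes tested were higher and 1 was lower, with a median log2 ratio of 1.05 beside -0.03 for all genes. Of these, Lef1, Calb2, Slitrk6, Synpo2 and Prkcd reached 10 CPM in the Slc17a6 neurons only, so the limit itself favoured genes that differ. Without the 148 nuclei of cluster 1, described with the other clusters below, 2 of 8 were higher and 1 lower, and the median was 0.27. The factor list of the subthalamic nucleus and posterior hypothalamus was higher at 4 of 4 genes tested, and the midbrain list at 5 of 10 with 2 lower. All lists were chosen with earlier results of these data known.

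Among thalamus genes, Ntng1, a netrin-related adhesion molecule of thalamic axons, was at 921.3 CPM against 332.4 CPM (log2 ratio 1.47, interval 1.41 to 1.53). Synpo2, an actin-binding protein, was at 55.37 against 7.776 CPM (2.68). Lef1, the TCF/LEF relative of Tcf7l2, was at 17.9 against 7.665 CPM (1.13), and this call ended when the CPM was averaged over nuclei (0.94). The other higher genes were Calb2, Plekhg1 and Slitrk6, and the lower one was Adarb2, a member of the RNA-editing enzyme family, at 430.9 against 1662 CPM. Tcf7l2 itself was at a log2 ratio of 0.34 and was not called. Without cluster 1, Ntng1 (1.31) and Calb2 (1.18) were still higher, while Synpo2 was at 12.91 CPM (0.66), Lef1 at 0.11, Plekhg1 at 0.44 and Slitrk6 at 0.22.

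Lmx1a and Lmx1b, LIM factors of the posterior hypothalamus and ventral midbrain, were at 27.85 against 4.888 CPM (2.29) and 12.3 against 3.222 CPM (1.66). Both entered the test through the Slc17a6 neurons only. Foxp2, a forkhead factor of thalamic and other projection neurons, was at 451 against 129.6 CPM (1.79, interval 1.71 to 1.89). The median of the list was 2.04, also with genes at 0 UMIs in either group set at their bound.

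Of the midbrain list, Ebf3 and Ebf1 were higher, the latter at 225.8 against 53.21 CPM (2.07, interval 1.94 to 2.23). Tfap2d, an AP-2 factor of the dorsal midbrain, was at 23.67 against 0.5554 CPM. Shox2, a factor of thalamic and midbrain neurons, was at 19.16 against 1.777 CPM. Nr4a2, a nuclear receptor of dopaminergic and other neurons, was at 36.05 against 12.66 CPM. The lower genes were Pax7, a dorsal midbrain factor, at 0.08365 against 11.89 CPM, and Meis2 at 29.53 against 120.5 CPM. Tfap2d, Shox2 and Pax7 reached 10 CPM in 1 group only, so the limit itself favoured genes that differ. Ebf2 and Ebf4 did not reach the 2-fold limit, which left 2 of 4 family members higher.

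Of the 14 genes on the list for the mammillary body and other hypothalamus, 5 were tested, of which 1 was higher and 4 were lower. Each of the 5 reached 10 CPM in 1 group only, so the limit itself favoured genes that differ. The rule left out nuclei with Sim1, Nkx2-1 and Sfta3-ps, which bears on this list. Without that limit in either group, which gave 1314 Slc17a6 and 756 GABAergic neurons, 1 was higher and 2 were lower, with Lhx1 at -0.24 and Nkx2-2 at -0.95. The higher gene was Lhx9, a LIM factor of thalamic and other neurons, at 38.98 against 0.9998 CPM (4.32). Lhx1, Lhx5, Nkx2-2 and Six3 were lower under the rule, with Six3, a factor of the anterior hypothalamus, at 3.011 against 24.44 CPM. Of the hindbrain list no gene of 15 reached 10 CPM, and the list summed to 4.433 CPM. The habenula list had 0 of 2 tested genes called. Hindbrain factors were therefore nearly missing from these nuclei.

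By size of ratio, Adcyap1, the precursor of the peptide PACAP, led the higher genes with 51.44 against 1.555 CPM (4.36). Nrn1, a neurite growth protein, was at 44.0 against 1.889 CPM (3.96), and Bdnf, a neurotrophin, at 51.69 against 9.776 CPM (2.29). Cacna2d1, an auxiliary subunit of calcium channels, was the most abundant of them at 927.9 against 76.65 CPM (3.58, interval 3.49 to 3.71). Adamts2, Tmem163, Ttc6, Chst8 and Gulp1 had ratios from 1.90 to 2.54.

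Among the lower genes Slc32a1 was at 2.175 against 77.43 CPM (-4.63). Gata3 and Tal1, factors of midbrain GABAergic neurons, were both at 0.1673 CPM against 55.99 and 21.33 CPM. Gad1os, the transcript antisense to Gad1, had 0 UMIs against 25.55 CPM. Slc30a3, a vesicular zinc transporter, was at 1.673 against 20.33 CPM (-3.00), and Nrxn3, a presynaptic neurexin, at 1334 against 5273 CPM (-1.98). Pomc, the precursor of melanocortin and endorphin, was at 62.82 against 1312 CPM (-4.36), but 1 GABAergic nucleus held 9733 of the 11808 UMIs. Without the nucleus with the most Pomc UMIs in each group the ratio was -2.13. With the study's limits on gene number, UMIs and ATAC fragments it was 0.30.

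Among 22 neuropeptide genes 7 were tested, of which Adcyap1, Cartpt and Cck were higher and Pomc and Sst lower. Cartpt, the precursor of the CART peptide, was at 18.99 against 2.222 CPM, but 1 nucleus held 193 of its 227 UMIs, and without the top nucleus of each group it was at 2.855 against 2.133 CPM and no longer called. Cck, cholecystokinin, was at 14.39 against 2.444 CPM. Of the 54 named and listed genes called against GABAergic neurons, 52 kept their call without the top nucleus of each group, the others being Cartpt and Hdc, the histidine decarboxylase. Cerebellins, which bridge neurexins to glutamate receptors of the delta type, were higher at Cbln1 (16.23 against 2.777 CPM), Cbln2 (53.2 against 16.33 CPM) and Cbln4 (32.54 against 11.22 CPM). Of 11 AMPA, kainate and delta receptor genes, 5 NMDA receptor genes, 6 metabotropic glutamate receptor genes, 6 serotonin receptor genes and 8 calcium channel genes tested, 0 passed 2-fold, beside 2.32% of all genes tested in either direction, a share at which lists of this size can be without a call.

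ATAC counts were not used by the rule, but the 2 groups of nuclei had been split by RNA of Slc17a6, Gad1 and Gad2. Differences at the loci of these genes therefore go with the choice and are no separate support for it. A locus was taken as the peaks that overlap a gene and 2.0 kb on each side. The Slc17a6 locus held 79.29 ATAC CPM in Slc17a6 neurons and 14.98 in GABAergic neurons, a log2 ratio of 2.40 (1.95 to 2.86). Over 22597 loci tested, 308 (1.36%) were 2-fold higher and 411 (1.82%) 2-fold lower. The GABA genes were lower, with Gad2 at 13.07 against 70.8 ATAC CPM (-2.44) and Slc32a1 at 8.11 against 63.7 (-2.97, interval -3.52 to -2.42). The Gad1 locus was lower by 1.14 on the log2 scale, which came to -0.87 with 50 kb on each side and -0.90 with at least 4 Slc17a6 UMIs. Hdc, at 0.4182 against 10.44 CPM of RNA, had a locus ratio of 0.03 (-0.59 to 0.67), and Slc6a5, the glycine transporter of inhibitory neurons, at 0.08365 against 4.555 CPM, one of 0.03 (-0.34 to 0.40). The RNA call of Hdc ended without the top nucleus of each group, and Slc6a5 was below the limit of 10 CPM. Of the genes of these loci the rule had used Slc17a6, Gad1 and Gad2.

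Chromatin at the regional loci ranged from little to clear differences. Tcf7l2 was at 126.3 against 111.6 ATAC CPM, and the interval of its log2 ratio of 0.18 reached from -0.02 to 0.38. Ebf3 was at 75.05 against 40.68 ATAC CPM (0.88, interval 0.58 to 1.19), and Ebf1 had a ratio of 0.94 (0.65 to 1.24). Shox2 (1.09, interval 0.64 to 1.54) and Foxp2 (1.03, interval 0.54 to 1.53) were more open. So was Lhx9 (1.26, interval 0.71 to 1.82), although its ratio was 0.50 with 50 kb on each side. Loci that were less open included those of Six3 (-1.71, interval -2.24 to -1.21), Lhx5 (20.58 against 53.45 ATAC CPM, -1.38), Lhx1 (-1.27, interval -1.77 to -0.79) and Emx2, a factor of forebrain patterning (-1.46, interval -2.03 to -0.92). Among the genes with the largest RNA ratios, the loci of Nrn1, at 128.1 against 25.39 ATAC CPM (2.33), and Cacna2d1, at 97.08 against 37.06 (1.39, interval 1.08 to 1.69), were more open.

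Gata3, at 6.658 against 54.4 ATAC CPM (-3.03, interval -3.63 to -2.42), and Tal1 (-2.04, interval -2.53 to -1.57) were less open. Across all genes called by RNA, 91 of 112 higher genes with a tested locus (81.25%) had the higher locus in Slc17a6 neurons, beside 49.62% of the 9594 genes tested in both. Of the 100 lower genes, 16% had it. RNA and chromatin therefore differed mostly in the same direction.

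At single peaks, 2286 of 99776 (2.29%) were 2-fold higher in Slc17a6 neurons and 3111 (3.12%) 2-fold lower. The peak over the Slc17a6 start, chr7:51621605-51622393, which contains the printed promoter nearly in full, held 272 counts against 13, or 32.92 against 2.05 ATAC CPM (log2 ratio 4.01, interval 2.96 to 5.59). The intron peak of Slc17a6, 40642 bases after the start, was at 13.68 against 2.996 ATAC CPM (2.19, interval 1.12 to 3.24). At Tcf7l2 the start peak was at 17.43 against 13.4 (0.38, interval -0.17 to 0.98). The Ebf3 start peak was at 23.48 against 11.35 (1.05, interval 0.48 to 1.64). These start peaks were chosen after their values were seen.

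Tcf7l2 and Ebf3 were then compared with each other among the 986 nuclei. Both had a UMI in 202 nuclei, Tcf7l2 alone in 360, Ebf3 alone in 197, and neither in 227. In all, Tcf7l2 had a UMI in 562 nuclei and Ebf3 in 399. Whether the overlap differs from what these shares alone would give was not tested. Nuclei with at least 3 Tcf7l2 UMIs and at most 1 of Ebf3 were taken as the Tcf7l2 type, and nuclei with at least 2 Ebf3 UMIs and at most 1 of Tcf7l2 as the Ebf3 type. This gave 301 nuclei of the Tcf7l2 type (30.53%), 174 of the Ebf3 type (17.65%), 83 that met both minimums and are called both below (8.418%), and 428 of neither kind (43.41%). The types rest on small counts and cut a continuous range, so they are ranges and not cell types. At a neuron gate of 0.4% the shares of the Tcf7l2 and Ebf3 types were 40.2% and 10.4%, and with at least 5 Tcf7l2 or 4 Ebf3 UMIs they were 18.6% and 9.33%. The median UMIs of the 4 kinds were 10729, 11820, 11801 and 10171 in that order.

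**Figure D2:**
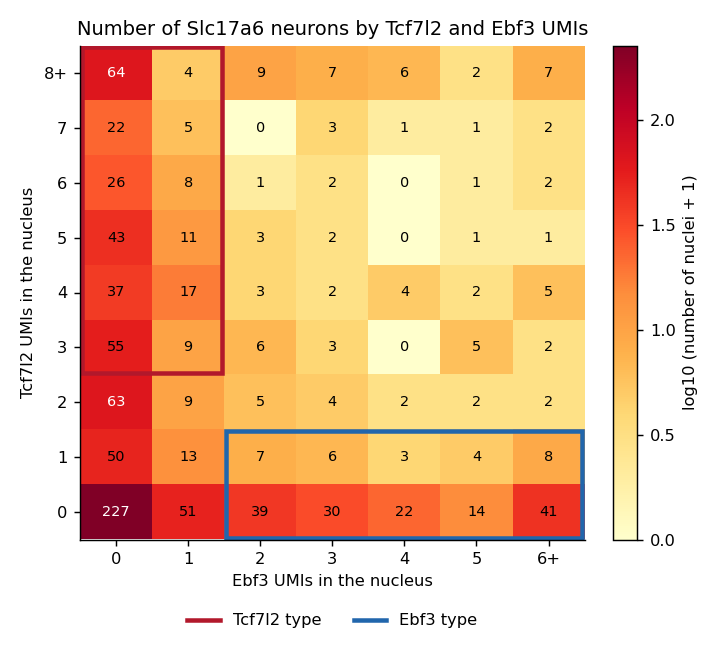
Number of Slc17a6 neurons by Tcf7l2 UMIs (rows, the top one 8 or more) and Ebf3 UMIs (columns, the last one 6 or more), colored on a log scale, with boxes around the Tcf7l2 type and the Ebf3 type. The 227 nuclei without either gene form the fullest cell, and 83 nuclei met both minimums, beside the 301 and 174 inside the boxes.

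By construction Tcf7l2 was at 492.7 CPM in the Tcf7l2 type and 12.79 CPM in the Ebf3 type, and Ebf3 at 14.95 and 372.6 CPM. Nuclei called both stood at 474.2 CPM of Tcf7l2 and 310.2 CPM of Ebf3, and those of neither kind at 47.1 and 25.04 CPM. Slc17a6 was at 415.1 CPM in the Tcf7l2 type and 471.3 CPM in the Ebf3 type. Hs3st4, which the types did not use, was at 470.2 against 148.9 CPM (log2 ratio 1.65, interval 1.49 to 1.83). Htr2c was at 679.6 against 496.8 CPM. Over 9788 genes tested, 159 (1.62%) were 2-fold higher in the Tcf7l2 type and 178 (1.82%) 2-fold higher in the Ebf3 type, 3.44% in either direction. These counts were 548 and 574 at a neuron gate of 0.4%, which kept 386 neurons.

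Of the thalamus list 6 of 11 tested genes, among them Tcf7l2, which defined the type, were higher in the Tcf7l2 type and 0 lower. Lef1 was at 38.49 against 2.283 CPM (3.59), Synpo2 at 129 against 17.81 CPM (2.79, interval 2.38 to 3.37) and Rorb, a nuclear receptor of sensory thalamus and cortex, at 191.1 against 67.13 CPM (interval 1.25 to 1.78). Prkcd, a protein kinase C of thalamic relay neurons, was at 18.55 against 4.11 CPM, and Slitrk6, a synaptic adhesion protein, at 29.63 against 6.85 CPM. Lef1, Prkcd and Slitrk6 reached 10 CPM in the Tcf7l2 type only, so the limit itself favoured genes that differ. The TCF/LEF and Wnt feedback list had 4 of 7 tested genes higher. Besides Tcf7l2 and Lef1 these were Axin2, a feedback inhibitor of Wnt signalling, at 24.92 against 6.393 CPM, and Lgr5, an R-spondin receptor, at 45.97 against 21.01 CPM. Axin2, like Lef1, reached 10 CPM in the Tcf7l2 type only. Lgr5 was at a ratio of 0.45 with stricter limits on the types. Much of the thalamus difference lay in cluster 1 of the clusters described below. Without its nuclei 2 of 9 tested thalamus genes, Tcf7l2 and Lef1 (11.71 against 2.358 CPM), remained 2-fold higher, with Synpo2 at 0.60, Rorb at 0.63, Prkcd at -0.73 and Slitrk6 at 0.07. Of the TCF/LEF and Wnt list 3 of 7 were then higher, and Lgr5 was at 0.20.

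Other transcription factors of the Tcf7l2 type were Lhx2, a LIM factor, at 29.63 against 2.283 CPM (3.22), Shox2 at 40.71 against 5.936 CPM (2.59) and Lhx9 at 65.08 against 15.98 CPM (1.96, interval 1.51 to 2.58). Tox, an HMG-box factor, was at 257 against 50.69 CPM (2.32, interval 2.06 to 2.64). The signalling genes Cbln2 (96.37 against 13.7 CPM) and Kitl, the ligand of the receptor Kit, (137.9 against 33.79 CPM) were on the same side. So was Cartpt (56.77 against 3.653 CPM), with 193 of its 205 UMIs in 1 nucleus, and its ratio was 0.22 without the top nucleus of each type. Slc4a4, a bicarbonate transporter, was at 66.46 against 11.42 CPM, and Rnf220, a ubiquitin ligase, at 527.8 against 119.2 CPM.

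Some genes known from monoamine neurons and from the subthalamic region were higher in the Ebf3 type. Slc18a2, the vesicular monoamine transporter VMAT2, was at 3.323 CPM in the Tcf7l2 type and 54.34 CPM in the Ebf3 type (-3.68). Ddc, the decarboxylase that makes dopamine and serotonin, was at 7.754 and 52.06 CPM (-2.60), while Th, the first enzyme of dopamine synthesis, was at 1.506 CPM over all Slc17a6 neurons. The rule had removed nuclei with 3 or more UMIs of the dopamine transporter. Lmx1a was at 3.6 and 57.99 CPM, Lmx1b at 2.215 and 26.94 CPM, and Nr4a2 at 9.97 and 78.09 CPM. Lmx1a and Lmx1b did not follow Ebf3 across the clusters described below. In cluster 10, highest in Ebf3 RNA at 374.0 CPM, both were at 0 CPM and Nr4a2 was at 147.1 CPM. In cluster 4, with Ebf3 at 40.49 CPM, Lmx1a and Lmx1b were at 73.54 and 36.36 CPM. Slc18a2 was at 123.5 CPM in cluster 3 and 12.72 CPM in the other Slc17a6 neurons. The types were not compared without cluster 3. Of the 9 genes of the subthalamic list 4 were tested, of which 3 were higher in the Ebf3 type and 0 lower. Lmx1a and Lmx1b reached 10 CPM in the Ebf3 type only, so the limit itself favoured genes that differ.

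Ebf2 accompanied Ebf3 at 18.83 against 157.5 CPM (-3.00, interval -3.46 to -2.69), while Ebf1 (-0.85) and Ebf4 (0.83) stayed within 2-fold. Ebf2 did not follow Ebf3 in every cluster, with 209.1 CPM in cluster 3 and 0 UMIs in cluster 10. Ret, the receptor of glial cell line-derived factors, was at 4.708 and 52.06 CPM. C1ql1, a secreted synapse protein of climbing fibres, was at 3.877 and 52.51 CPM, and Ntn1, the axon guidance cue netrin, at 6.923 and 42.47 CPM. Ttc6 had the lowest ratio, at 3.6 and 130.1 CPM (-4.83). Adcyap1, which led the comparison with GABAergic neurons, was at 24.09 and 84.48 CPM. In cluster 4, of which 84.62% was of neither type, it was at 155.3 CPM, against 39.74 CPM in the other Slc17a6 neurons. Pomc was at 48.74 and 104.6 CPM, with 126 of the 229 UMIs of the Ebf3 type in 1 nucleus. Its ratio was -0.05 without the top nucleus of each type and 0.24 with stricter limits on the types. Of the 49 named and listed genes called between the types, 45 kept their call without the top nuclei, the others being Cartpt, Pomc, Npas4 and Nkx2-2.

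Of the serotonin receptors, Htr1b (21.05 against 7.306 CPM) and Htr7 (73.11 against 32.42 CPM) were higher in the Tcf7l2 type. Htr2a, at 10.52 against 33.33 CPM, was higher in the Ebf3 type, with a ratio of -0.84 at a neuron gate of 0.4%. Of 11 AMPA, kainate and delta, 5 NMDA and 6 metabotropic glutamate receptor genes tested, 0 passed 2-fold, which beside 3.44% of all genes says little of these lists. Of the other-cell lists, the oligodendrocyte list summed to 400.7 and 361.7 CPM, the OPC list (oligodendrocyte precursors) to 60.09 and 54.34 CPM and the astrocyte list to 201.1 and 205.9 CPM. The immune list was at 59.54 and 89.5 CPM, the endothelial list at 13.02 and 6.85 CPM and the proliferation list of 2 genes at 19.11 and 5.023 CPM. Of the tested genes in these 6 lists 1 was called, Top2a, a topoisomerase of dividing cells, at 13.02 against 3.196 CPM. The part of other cells in the type values was not tested.

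Chromatin differed between the types as well, which had been chosen by RNA of Tcf7l2 and Ebf3 in the same nuclei. The Tcf7l2 locus held 198.3 ATAC CPM in the Tcf7l2 type, 63.07 in the Ebf3 type, 164.8 in the nuclei called both and 93.21 in those of neither kind. The log2 ratio of the types was 1.65 (1.17 to 2.13). The Ebf3 locus held 40.06, 130.5, 141.7 and 65.68 ATAC CPM in the same order, with a ratio of -1.70 (-2.25 to -1.20). The 83 nuclei that met both minimums were open at both loci and near the higher type at each. At Slc17a6 the types held 86.07 and 70.32 ATAC CPM.

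Of 20078 loci tested, 643 (3.2%) were 2-fold more open in the Tcf7l2 type and 521 (2.59%) in the Ebf3 type. Lef1 was at 54.34 against 7.974 ATAC CPM (2.77, interval 1.44 to 4.13) and Gbx2, a thalamic homeobox factor, at 29.75 against 5.075 (2.55, interval 0.90 to 4.33). Lhx2 (1.45, interval 0.67 to 2.33), Tox (1.22, interval 0.64 to 1.85), Lhx9 (1.18, interval 0.27 to 2.09) and Prkcd (48.0 against 23.92 ATAC CPM, interval 0.22 to 1.93) were on the same side. Shox2 had a ratio of 1.61 (0.78 to 2.69), which was 0.85 with 50 kb on each side. Lef1, Lhx2, Tox, Lhx9 and Shox2 thus had both more RNA and a more open locus in the Tcf7l2 type.

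On the Ebf3 side Nr4a2 was at 35.7 against 79.74 (-1.16, interval -1.76 to -0.56). Slc18a2 was at 10.31 against 28.27 (-1.45, interval -2.62 to -0.41) and Lmx1b had a ratio of -0.80 (-1.26 to -0.34). Some genes with a clear RNA difference had an interval that held 0 in chromatin. These were Lmx1a (-0.31, interval -1.03 to 0.35), Ebf2 (-0.51, interval -1.26 to 0.37), Axin2 (0.09, interval -0.38 to 0.56), Synpo2 (0.54, interval -0.02 to 1.18) and Hs3st4 (0.71, interval -0.10 to 1.60). At these ATAC counts such loci could not be told apart between the types.

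**Figure D3:**
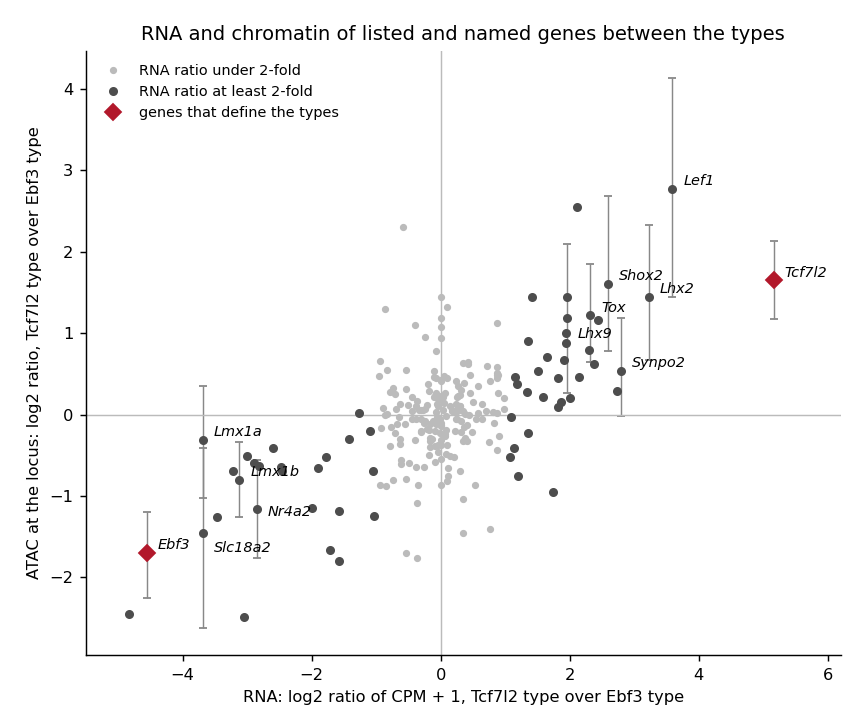
Log2 ratio of the Tcf7l2 type over the Ebf3 type in RNA (CPM plus 1, horizontal axis) and in ATAC counts of the locus (vertical axis) for listed and named genes, with 95% intervals as bars for the genes labelled; red diamonds are the genes that define the types. Lef1, Shox2 and Lhx2 lie at the upper right and Slc18a2 and Nr4a2 at the lower left, while Lmx1a lies far left with its locus near 0.

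Over all genes with a tested locus, 99 of 143 genes higher in the Tcf7l2 type by RNA (69.23%) had the more open locus there. Of 165 genes higher in the Ebf3 type, 38 (23.03%) had it, and of all genes tested 49.01%.

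At the level of peaks, 4215 of 46717 (9.02%) were 2-fold higher in the Tcf7l2 type and 3051 (6.53%) 2-fold higher in the Ebf3 type. The latter count was 1328 at a neuron gate of 0.4% and 1987 with stricter limits on the types. Both sets rested on few counts, with medians of 30 and 27 beside 41 for all peaks tested. They lay within 1 kb of a start site in 18.1% and 21.3% of cases, beside 40.1% of all peaks tested. The peak over the Tcf7l2 start, chr19:55741213-55742064, held 77 counts in the Tcf7l2 type and 6 in the Ebf3 type, or 30.54 and 4.35 ATAC CPM (2.81, interval 1.14 to 5.13). The intron peak around the printed Tcf7l2 window, 83979 bases after the start, held 28 counts and 0, with a lower limit of 0.86 for the log2 ratio. Of the 20 peaks at the gene, the one 110008 bases after the start was at 22.21 and 18.85 ATAC CPM (0.24, interval -0.76 to 1.31). The latter peak was chosen after its values were seen.

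Ebf3 has 11 peaks. The start peak, chr7:137314017-137314846, which holds the printed promoter, was at 9.52 ATAC CPM in the Tcf7l2 type and 43.5 in the Ebf3 type (-2.19, interval -3.29 to -1.18). An intron peak 12844 bases after the start was at 5.95 and 23.2 ATAC CPM (-1.96, interval -3.30 to -0.56). Slc17a6 has 5 peaks, and its start peak was open alike in both types within wide limits, at 30.15 and 27.55 ATAC CPM (0.13, interval -0.70 to 1.01). Its intron peak, whose center is printed above, was at 24.99 and 9.424 ATAC CPM (1.41, interval 0.27 to 3.09). It was taken as the peak of the 5 with the largest difference between the types.

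**Figure D4:**
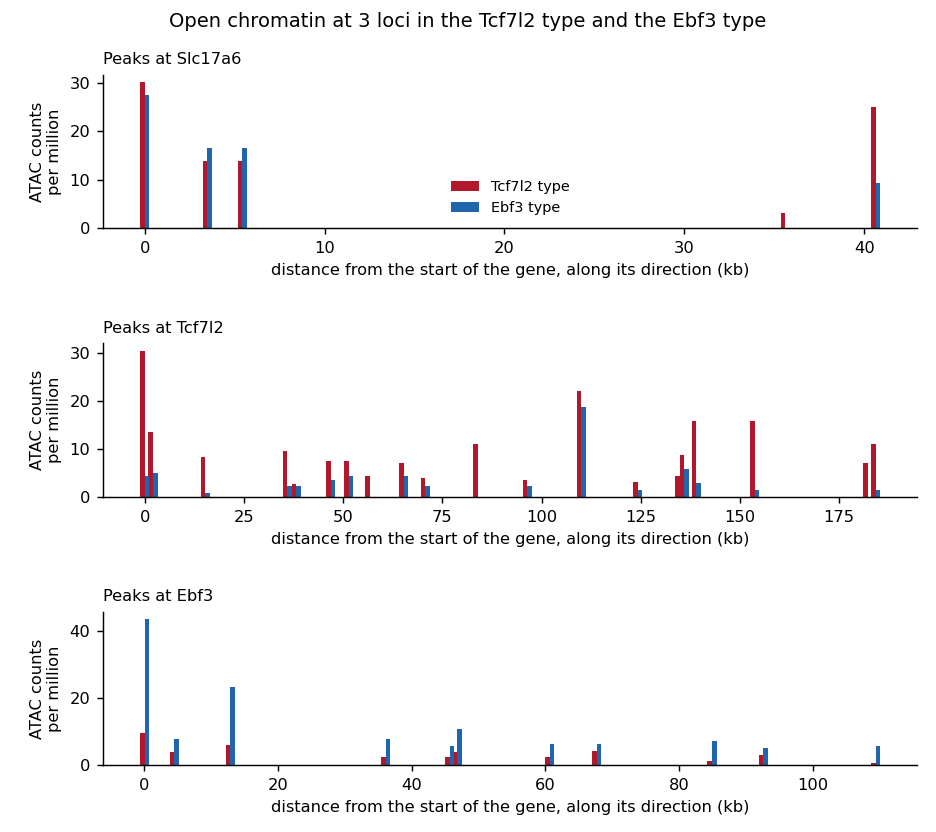
ATAC CPM of each called peak at Slc17a6, Tcf7l2 and Ebf3 by distance from the gene start in kb, in the Tcf7l2 type and the Ebf3 type. The start peak of Slc17a6 is similar in both (30.15 and 27.55), that of Tcf7l2 is high in the Tcf7l2 type (30.54 and 4.35) and that of Ebf3 in the Ebf3 type (9.52 and 43.5).

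The 3 peaks with the highest ratio for the Tcf7l2 type lay between genes at chr19:16083875-16084795, chr5:37232877-37233683 and chr13:49326300-49327194. They held 56, 54 and 45 counts against 0, with lower limits of 1.96, 1.90 and 1.58 for the log2 ratio. The 3 for the Ebf3 type were chr14:73334888-73335729, at the start site of an unnamed transcript, chr4:131380793-131381749, between genes, and chr14:77440648-77441500, in an intron of Enox1. They held 26, 23 and 20 counts against 0, with limits nearest to no difference of -2.48, -2.34 and -2.03. None of these peaks lay at Tcf7l2 or Ebf3.

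In the central 300 bases of peaks away from start sites, ATCAAAG was found in 224 of 3448 peaks higher in the Tcf7l2 type, 6.497% (5.697 to 7.371). It was found in 80 of 2400 peaks higher in the Ebf3 type, 3.333% (2.652 to 4.132), and in 4.341% of the 27964 such peaks tested. With at least 50 counts per peak, a limit chosen after the data were seen, the shares were 7.674%, 4.969% and 3.786%, and the intervals of the 2 types, 5.308 to 10.66 and 2.169 to 9.556, overlapped. Peaks higher in Slc17a6 than in GABAergic neurons held it in 6.185% of cases, beside 4.295% of those tested. The EBF motif was found in 1.218%, 1.083% and 1.08% of the 3 sets of type peaks, and the E-box in 23.64%, 29.25% and 26.38%. At the lower limit the TCF/LEF letters were thus more frequent where the Tcf7l2 type was more open, and the EBF letters were rare in every set.

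The printed Wdr25 window is an example with many counts, chosen after its values were seen. Its peak, chr12:109010028-109010937, held 64 counts in the Tcf7l2 type and 10 in the Ebf3 type, or 25.39 and 7.249 ATAC CPM (1.81, interval 0.44 to 3.53).

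Clustering of the RNA split the 986 nuclei into 12 clusters of 15 to 189 nuclei. They are described by their leading genes and named by number. Cluster 1 (148 nuclei, 15.01%) was led by Gli3, Synpo2, Lypd6, Wnt4 and Lef1, and 70.27% of it was of the Tcf7l2 type. Of the thalamus list 7 of 12 genes were 2-fold higher there than in the other clusters, beside 5 of 6 astrocyte genes and 2.85% of all genes tested, and 7.432% of its nuclei were marked as doublets. Synpo2 was at 293.7 CPM, Rorb at 313.6 CPM and Lef1 at 71.35 CPM in it. In clusters 6 and 8, which had more Tcf7l2, Synpo2 was at 9.919 and 7.282 CPM, and Tcf7l2 was the 1 thalamus gene 2-fold higher, beside 3.29% and 3.24% of all genes tested. The part of the astrocyte genes in the values of cluster 1 was not tested. Cluster 6 (61 nuclei) was led by Nek11, Arhgap36 and Nnat, with Cbln2 and Lhx2 among its first 10 genes, and 72.13% of it was of the Tcf7l2 type. Cluster 8 (40 nuclei) was led by Tfap2b, an AP-2 factor, and Foxb1, a forkhead factor of mammillary neurons and thalamus.

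Ebf3 RNA was highest in clusters 10 and 3, and clusters 5, 2 and 8 (209.8, 148.9 and 128.7 CPM) also stood above the 112.4 CPM of all Slc17a6 neurons. Cluster 10 (29 nuclei) was led by Foxd2os, Gucy2c and Ildr1, with Onecut1 and Sim1 among its first 10 genes although the rule had capped Sim1, and 86.21% of it was of the Ebf3 type. Cluster 3 (117 nuclei) was led by Csf2rb2, Adgrv1, Lmx1a and Slc18a2, and 47.01% of it was of the Ebf3 type. Cluster 4 (104 nuclei) shared Lmx1b with it but was of neither type in 84.62% of nuclei, and had Greb1 and Rxrg among its leading genes. Cluster 0, with 189 nuclei and 19.17% the largest, was led by Scn4b, Nefh and Syt2, a sodium channel subunit, a neurofilament and a fast synaptotagmin. Of the 10 genes of the habenula list Pou4f1 and Irx2 were 2-fold higher there, beside 1.93% of all genes tested, and Pou4f1 also was in clusters 4, 8 and 11, where 1.61%, 3.24% and 9.33% of all genes were. Cluster 2 (118 nuclei) had Zic4, Pax6 and Pomc among its first genes, and cluster 5 (84 nuclei) had Tfap2d and Nfib. Cluster 11, of 15 nuclei, was led by Pax5 and Sox14.

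Clusters 7 and 9 carried genes of other cells. Cluster 7 (44 nuclei) was led by Aspa and held Mog, both genes of oligodendrocytes, and 70.45% of it was marked as doublets. Cluster 9 (37 nuclei) was led by Ly86 and Ikzf1, genes of immune cells, and 86.49% of it was marked. With these clusters left out of the Slc17a6 neurons alone, 191 genes in place of 106 were lower than in GABAergic neurons. With the nuclei marked as doublets left out of both groups there were 109.

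Chromatin had not shaped the clusters, and its order across them was close to that of RNA at Tcf7l2 and less so at Ebf3. Tcf7l2 RNA was highest in cluster 8 at 546.2 CPM, then cluster 6 at 481.1 and cluster 1 at 408.8 CPM, and low in cluster 3 at 15.05 and cluster 10 at 3.065 CPM. Its locus held 259.3, 212.9, 174.4, 59.71 and 50.48 ATAC CPM in the same order. Cluster 4, with more Tcf7l2 RNA than clusters 3 and 10 at 23.14 CPM, had the least open locus at 48.21 ATAC CPM. Ebf3 RNA was at 374.0 CPM in cluster 10, 267.7 in cluster 3, 209.8 in cluster 5, 128.7 in cluster 8 and 0 in cluster 6. Its locus held 126.2, 129.0, 102.9, 149.3 and 15.91 ATAC CPM. Several clusters stood out of order. Cluster 8 had the most open Ebf3 locus at an intermediate RNA level, cluster 9 held 42.21 ATAC CPM with RNA at 111.0 CPM, and cluster 11 held 92.67 (interval 22.44 to 210.9) with RNA at 50.87 CPM.

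Some single factors were highest in the same cluster in both readouts, with wide ATAC intervals. Lef1 was at 71.35 CPM of RNA and 74.76 ATAC CPM (54.95 to 101.5) in cluster 1. In cluster 6 it was at 3.306 CPM and 49.73 ATAC CPM (24.67 to 83.4). Foxb1 was at 24.27 CPM of RNA in cluster 8 and at most 1.653 CPM elsewhere, and its locus there held 106.1 ATAC CPM. Lhx9 was at 104.2 CPM and 61.67 ATAC CPM (36.39 to 103.4) in cluster 6. It was at 94.67 and 47.15 in cluster 8 and at 64.16 and 56.72 in cluster 1. Shox2 was highest in cluster 6 by RNA, at 82.66 CPM with 67.64 ATAC CPM, but its locus was more open in cluster 8, at 86.44. Lmx1a was at 144.1 CPM of RNA and 78.91 ATAC CPM in cluster 3 and at 73.54 and 95.35 in cluster 4. Clusters 3 and 4 thus had the highest Lmx1a levels of the 12 in both readouts, while Ebf3 RNA was at 267.7 and 40.49 CPM in them.

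**Figure D5:**
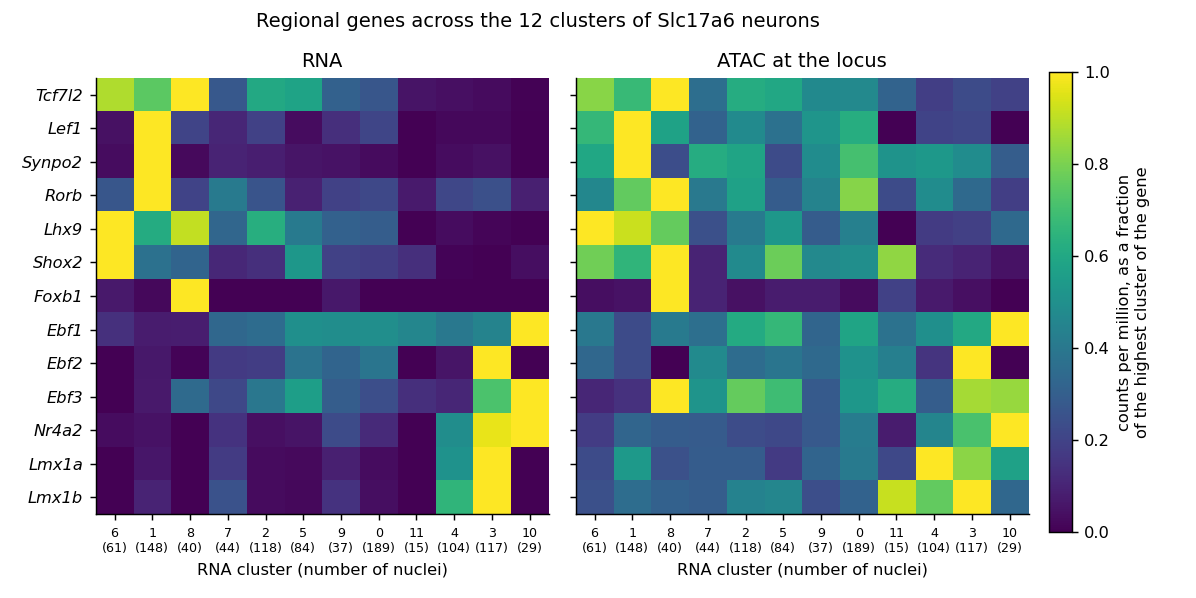
RNA (left) and ATAC counts of the locus (right) of regional genes in the 12 clusters, each as a fraction of the gene's highest cluster, with clusters ordered by their share of the Tcf7l2 type. Tcf7l2 is brightest in clusters 8, 6 and 1 in both panels, and Lmx1a and Lmx1b in clusters 3 and 4, with cluster 11 bright for Lmx1b in ATAC only.

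Per cluster, 58.42% (cluster 8) to 84.94% (cluster 9) of the genes 2-fold higher by RNA had the more open locus, beside 46.89% to 50.87% of all genes.

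The library of Foxr2 alone gave a glutamatergic reference from cortex, but there genotype and library cannot be told apart, and neither can the brain regions that were sampled. Of 10589 genes tested, 1379 (13.0%) were 2-fold higher in the Slc17a6 neurons and 1608 (15.2%) 2-fold lower. The telencephalon list was lower at 8 of 8 genes tested, with a median of -4.45 and a sum of 24.84 against 882.0 CPM. Slc17a7, which chose the cortical neurons and is 1 of the 8, was at 2.008 against 396.7 CPM by construction. Nrgn, a calmodulin-binding protein of forebrain neurons, was at 8.532 against 354.7 CPM.

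The thalamus list was higher at 9 of 11 genes tested, or 5 of 8 without cluster 1, and the Ebf family at 4 of 4, with Ebf1 at 225.8 against 4.859 CPM (5.28). Tcf7l2 was at a ratio of 5.25, and Nxph1, a neurexin ligand, at 709.8 against 16.0 CPM (5.39, interval 5.30 to 5.65). Interferon-responsive genes were higher at 10 of 10 tested, with a sum of 632.9 against 93.46 CPM. Gbp2, a guanylate-binding protein, was at 83.14 against 0.1143 CPM, and H2-K1, an MHC class I chain, at 54.96 against 4.916 CPM. In the same library the interferon list summed to 675.8 CPM in GABAergic neurons and 3884 CPM in immune nuclei. Immune marker genes summed to 72.77 CPM in the Slc17a6 neurons and 78.65 CPM in the cortical ones, with Ptprc (20.33 against 1.943 CPM) and C1qa (22.58 against 9.66 CPM) higher and Cx3cr1 and P2ry12 lower. Cd74, the invariant chain of MHC class II, was at 44.5 against 0.2858 CPM, with a UMI in 28.7% and 0.3303% of nuclei, and at 658.7 CPM in immune nuclei. Of the 6 genes of the OPC list 2 were tested and both were higher, Pdgfra (12.3 against 0.4001 CPM) and Vcan (27.69 against 4.23 CPM). Both reached 10 CPM in the Slc17a6 neurons only, so the limit itself favoured genes that differ. The part of other cells in these values was not tested.

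When the rule was applied to Foxr2 alone, 64 of 5817 neuron nuclei (1.1%) passed. They held Tcf7l2 at 3.402 CPM and Ebf3 at 6.804 CPM, with Slc17a6 at 213.2 and Slc17a7 at 275.6 CPM. Hs3st4 was at 1188 CPM. Htr2c was at 188.3 CPM, above the 106.4 CPM of the cortical neurons. The nuclei that passed in Foxr2 alone thus had Slc17a7 RNA and little of Tcf7l2 and Ebf3, at 3 and 6 UMIs.

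Vector RNA and chromatin are given beside those of the immune nuclei, a set that held vector counts and is no vector-free background. That set also held RNA of other cells, so its vector counts cannot be credited to immune cells. GFP was at 82.22 CPM in 56.69% of nuclei, and in 21.1% after thinning. Immune nuclei had 527.0 CPM, with GFP in 56.72% of all 2477 and in 52.78% of the 1440 deep enough to be thinned. The shares before and after thinning are thus of unlike sets in immune nuclei. Foxr2 was at 13.8 CPM (11.78 to 16.08) beside 12.78 CPM in GABAergic and 54.96 CPM in immune nuclei. Akaluc was at 32.2 against 234.5 CPM in immune nuclei. By chromatin, 7 of the 986 nuclei (0.7099%, interval 0.2859 to 1.457) had an ATAC count on the vector with Akaluc, against 23 of 751 GABAergic neurons (3.063%) and 260 of 2477 immune nuclei (10.5%). Trp53 was at 16.48 CPM, and RNA of the p53 guide and of Cas9 had 0 UMIs, which allows up to 0.3086 CPM each. Both were also at 0 UMIs in the GABAergic, immune and cortical groups. The study describes Cas9 expression as transient, so 0 UMIs cannot show which nuclei had received the guide and Cas9. A guide against Trp53 edits its sequence, and its RNA level does not show whether it was edited.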

How the data were processed

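RNA and ATAC counts of 1 Foxr2 p53LOF and 1 Foxr2 alone library were used; the counts of Foxr2 alone replicate 2 were not analysed here. The deposited values are raw counts, UMIs per gene and transposase cuts per peak, written by Cell Ranger ARC (2.0.0 per the submitters' processing notes), which the authors ran on mm10 plus vector sequences. Cells and peaks were called per library by the authors. The matrix held 32298 genes and 112924 peaks, and 80.69% of the ATAC entries were even, as 2 cuts per fragment give. The members, the 30 lists of 274 genes and all limits were chosen with earlier results of these data known.

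From the counts, sums per group, CPM, ratios (pseudocount 1) and exact 95% intervals were computed with python 3.11.15, numpy 2.4.6, pandas 2.3.3 and scipy 1.17.1, and checked on simulated counts. Genes needed 10 CPM in either group, peaks 20 counts over both types. Doublets were called with Scrublet in scanpy 1.11.5 on the p53LOF library, where 383 nuclei (3.864%) were marked, and were kept as the rule keeps them. Clusters came from 2000 variable genes, 30 components, 15 neighbours and Leiden (leidenalg 0.10.2, resolution 0.5, seed 100), leaving out genes found in fewer than 10 nuclei. Sequences were read with pysam 0.24.0.

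Named genes were the 12 highest and 12 lowest ratios per comparison with at least 20 CPM and a UMI in at least 20% of nuclei of the higher group, without unnamed genes and genes of the rule, plus members of the lists; a few of these genes are not reported here. Named peaks were the called peak with the largest ratio at Slc17a6, Tcf7l2 and Ebf3 and the 3 highest per type; other peaks described at these genes, and the Wdr25 window, were chosen after their values were seen. Immune nuclei had at least 3 UMIs of Csf1r, Ptprc, Cx3cr1, P2ry12 and C1qa together and failed the neuron limit. The alternatives were a stricter neuron gate, Slc17a6 limit, UMI minimum and type limits, the removal of doublets, the removal of the nucleus with the most UMIs of a gene, the study's limits on nuclei, means over nuclei, 50 CPM, other flanks and ATAC scaling, other depths of thinning and other resolutions. Of the study's limits, those on gene number, maximum UMIs and ATAC fragments (ATAC counts halved) were applied. Those on mitochondrial share, start site enrichment and nucleosome signal were not.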

Additional observations from a re-analysis of the deposited data

How the results depend on the processing

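A neuron gate of 0.4% kept 386 neurons, with shares of 40.2% and 10.4% for the Tcf7l2 and Ebf3 types, 189 genes higher than in GABAergic neurons, 548 and 574 genes higher in the Tcf7l2 and the Ebf3 type, and 1328 peaks higher in the Ebf3 type. At least 4 Slc17a6 UMIs kept 652 neurons. With at least 50 CPM the higher and lower genes numbered 30 and 32 against GABAergic neurons, 547 and 572 against cortical neurons, and 39 and 47 between the types. With at least 5 Tcf7l2 or 4 Ebf3 UMIs the types made up 18.6% and 9.33%, with 257 and 325 genes and 1987 peaks higher in the Ebf3 type. Without clusters 7 and 9, an alternative added after the data were seen, 191 genes were lower than in GABAergic neurons, and 109 without doublets in either group. Without cluster 1 and without the limit on hypothalamic genes, both added after the data were seen, 2 thalamus genes in place of 6 were higher in the Tcf7l2 type, 2 in place of 6 higher than in GABAergic and 5 in place of 9 than in cortical neurons, and 2 hypothalamus genes in place of 4 lower than in GABAergic neurons. Fewer nuclei or a higher limit on CPM enter by construction, and beyond that the cause was not tested.

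The log2 ratio of Pomc turned to 0.30 against GABAergic neurons with the study's limits on nuclei and to 0.24 between the types with stricter type limits; the cause was not tested. Without the nucleus with the most UMIs of the gene in each group, an alternative added after the data were seen, the ratio of Cartpt against cortical neurons turned to -0.38. Of 454 ratios of single genes and loci, 249 (54.8%) left their counting interval at the gate of 0.4%. Means over nuclei moved 76 of 442, stricter type limits 34 of 155, at least 4 Slc17a6 UMIs 64 of 461, the study's limits 53 of 460, leaving out clusters 7 and 9 54 of 458, leaving out doublets 46 of 453 and leaving out the top nuclei 12 of 453. The ratio of the Slc17a6 locus against GABAergic neurons lay between 2.23 and 2.48 under the alternatives run, and those of the Tcf7l2 and Ebf3 loci between the types at 1.46 to 1.93 and -2.16 to -1.63. A minimum of 3000 UMIs and a limit of 1% on markers of other cells removed 0 Slc17a6 neurons and could therefore move little. Resolutions of 0.3 and 0.8 gave 10 and 15 clusters. Every value rests on 1 library per genotype, so the spread between animals is unknown, and the low ATAC counts per peak left wide intervals. No paired analysis was possible because the groups share only 1 replicate number, with 1 library per genotype, and no result comes from a test.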
